A study of Mus musculus with 59 samples.

Results

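Transcripts of 9 genes for structural parts of the myelin sheath, Mbp, Mog, Mag, Mobp, Cnp, Cldn11, Mal, Opalin and Ermn, were followed through single mouse cells. The genes were taken by symbol, and all 9 were found among the 20689 genes of the table. The 59 cells were labelled as chemical-induced neurons in a study of converting astrocytes into neurons inside the living brain, and all carried an age label of 12 weeks. Before sequencing, each cell had been patched in the living animal and its contents taken up through the pipette. The cells form 1 group. The labels used here give no strain, genotype, compound or animal for a cell. All 59 therefore count as 1 sample here, and no untreated cell or untreated neuron was compared.

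Central nervous system myelin is made by oligodendrocytes, which wrap axons in compacted layers of membrane. Myelin basic protein (Mbp) holds the cytoplasmic faces of the layers together. The other proteins occupy narrower sites, at the axon, in the cytoplasmic channels, at the seams between wraps or on the outermost layer. Neurons are not known as a source of compact myelin, and these genes are commonly used as markers of the mature oligodendrocyte. The Mbp gene also gives rise to Golli transcripts, which neurons and immune cells use, and values summed per gene do not separate them from the myelin transcripts.

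Promoter windows are shown for 4 of the genes as examples with and without motif matches. Mobp held the most SOX motif matches and Cnp held both a MYRF and a SOX motif, while Cldn11 and Mal, whose levels followed each other most closely, held none. Each window is 300 bases on the strand of the gene, from 250 bases before to 50 bases after the transcript start, taken from RefSeq on GRCm38.p6. Capitals mark matches on either strand to CTGGCAC or CTGGTAC (the MYRF motif), ACAAAG or ACAATG (the SOX motif) and TATAAA. The windows lie at chr9:120149492-120149791 (plus strand) for Mobp, chr11:100574689-100574988 (plus strand) for Cnp, chr3:31149670-31149969 (plus strand) for Cldn11 and chr2:127656646-127656945 (minus strand) for Mal.
Mobp: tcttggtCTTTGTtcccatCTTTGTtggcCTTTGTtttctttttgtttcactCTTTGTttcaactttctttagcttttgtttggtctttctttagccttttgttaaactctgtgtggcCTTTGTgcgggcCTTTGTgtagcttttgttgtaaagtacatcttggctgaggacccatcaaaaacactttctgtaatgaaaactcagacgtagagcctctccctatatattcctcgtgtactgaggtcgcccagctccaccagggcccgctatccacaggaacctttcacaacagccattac
Cnp: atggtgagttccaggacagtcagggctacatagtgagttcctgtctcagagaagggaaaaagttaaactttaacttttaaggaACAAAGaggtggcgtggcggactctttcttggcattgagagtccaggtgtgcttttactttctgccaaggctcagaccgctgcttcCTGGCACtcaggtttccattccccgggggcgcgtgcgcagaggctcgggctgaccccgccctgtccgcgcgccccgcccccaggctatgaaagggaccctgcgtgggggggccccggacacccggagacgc
Cldn11: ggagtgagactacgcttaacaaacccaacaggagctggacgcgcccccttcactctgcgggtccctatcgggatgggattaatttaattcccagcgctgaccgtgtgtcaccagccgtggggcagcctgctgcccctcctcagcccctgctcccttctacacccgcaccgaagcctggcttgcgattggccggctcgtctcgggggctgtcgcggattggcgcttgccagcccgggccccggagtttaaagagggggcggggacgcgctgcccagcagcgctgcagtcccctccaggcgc
Mal: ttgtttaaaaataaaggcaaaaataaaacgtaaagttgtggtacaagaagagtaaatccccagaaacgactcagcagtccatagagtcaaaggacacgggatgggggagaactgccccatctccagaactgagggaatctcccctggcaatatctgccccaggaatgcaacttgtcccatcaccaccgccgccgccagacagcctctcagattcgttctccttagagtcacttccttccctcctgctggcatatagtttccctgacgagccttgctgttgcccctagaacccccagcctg
The window of Mobp held 6 matches to ACAAAG, all read on the opposite strand as CTTTGT, at positions -243 to -120 relative to the transcript start. 1 of the 32851 windows in the RefSeq table, that of Mobp, held as many, a count that was looked up after the match number had been seen. The window of Cnp held 1 match to ACAAAG, at position -167, and 1 to CTGGCAC, at position -81.

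RefSeq windows were matched for 8 of the 9 genes, with 10 windows in all because Mag had 3, of which a pair overlap. A MYRF motif in either spelling was present in windows of 4 genes, Mag, Cnp, Mog and Opalin, and in 7.10% of all 32851 windows. A SOX motif in either spelling was present in windows of 5 genes, Ermn, Mag, Mobp, Cnp and Opalin, and in 28.6% of all windows. The E-box CANNTG, searched on both strands and left in lower case above, was present for 3 genes, Cnp, Mag and Opalin, against 72.3% of all windows. TATAAA was present in 0 of the 10 windows, against 13.6% of all windows. Matches of different motifs overlapped in 0 instances in these windows. A match is a run of letters and says nothing about binding.

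Levels are FPKM, fragments per kilobase of exon and per 1000000 fragments mapped. Comparing them between genes assumes that the exon length used for each gene matches the transcripts present, which was not tested. In GENCODE M21 the exons of Mbp cover 8469 bases and those of Mog 1704 bases. A gene was called detected at an FPKM of 1 or more. Depth was recovered from the spacing of the low values and was 29043 fragments in the shallowest cell, 912996 in the median cell and 2950402 in the deepest, and between 475 and 10310 genes were detected in a cell, with a median of 3984. Exact Clopper-Pearson 95% intervals are given with shares of cells, and medians carry 95% order-statistic intervals. Both describe these cells and cover neither animals nor the loss of molecules during library making. Of the 9 myelin genes, 8 were found in 50% or more of the cells, a share that 11.7% of all genes reached.

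The basic proteins led. Mbp had an FPKM of 0 in its lowest cell, a median of 429 (interval 174 to 884) and a highest value of 14711 in cell 10, and it was detected in 55 cells (93.2%, interval 83.5 to 98.1%). Its median was the 32nd highest of all genes, and it was 959 with each cell rescaled to a sum of 1000000 and 1136 with mitochondrial genes left out as well. Mobp, the oligodendrocytic myelin basic protein, ran over 0, a median of 343 (179 to 481) and 8636 FPKM, also in cell 10, with detection in 54 cells (91.5%, 81.3 to 97.2%). Within cells that had both, Mbp was the higher in most, as the ratios given further on show.

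Cnp encodes the phosphodiesterase of the cytoplasmic channels of myelin. It had 0, a median of 152 (47.0 to 360) and 5152 FPKM as lowest, middle and highest values and was detected in 50 cells (84.7%, 73.0 to 92.8%). The raft proteolipid gene Mal ran over 0, 87.4 (13.3 to 212) and 2856 FPKM, in 47 cells. Cldn11, the claudin that forms the tight junction strands between wraps, ran over 0, 75.1 (10.4 to 302) and 6705 FPKM, in 41 cells. Cldn11 was the most variable of the 9, with an SD of 4.38 on the log2(FPKM + 1) scale, against 3.14 for both Mbp and Mobp.

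Ermn and the genes of adhesion and surface proteins were lower and split the cells. Ermn, encoding the cytoskeletal protein ermin of late oligodendrocytes, ran over 0, 57.6 (5.11 to 105) and 822 FPKM, in 40 cells. Mog, the glycoprotein of the outermost layer, ran over 0, 46.3 (0.382 to 239) and 2517 FPKM, in 35 cells. Mag, the adhesion glycoprotein on the side facing the axon, ran over 0, 11.7 (0.412 to 78.8) and 1692 FPKM, in 34 cells. Opalin, a transmembrane sialoglycoprotein of oligodendrocytes, ran over 0, 0.725 (0 to 38.9) and 1195 FPKM, and was the gene below 50%, in 29 cells (49.2%, 35.9 to 62.5%). In the order of the 9 medians, from Mbp down to Opalin, each gene and its neighbour had overlapping intervals over all cells. The ratios within cells given further on do part some neighbours. Where they were detected these genes were not faint. The median over detected cells was 368 FPKM for Mog, 160 FPKM for Mag and 115 FPKM for Opalin, against 472 FPKM for Mbp. Values spread widely, with Mog at an FPKM of exactly 0 in 21 cells and above 100 in 24 cells.

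**Figure D1:**
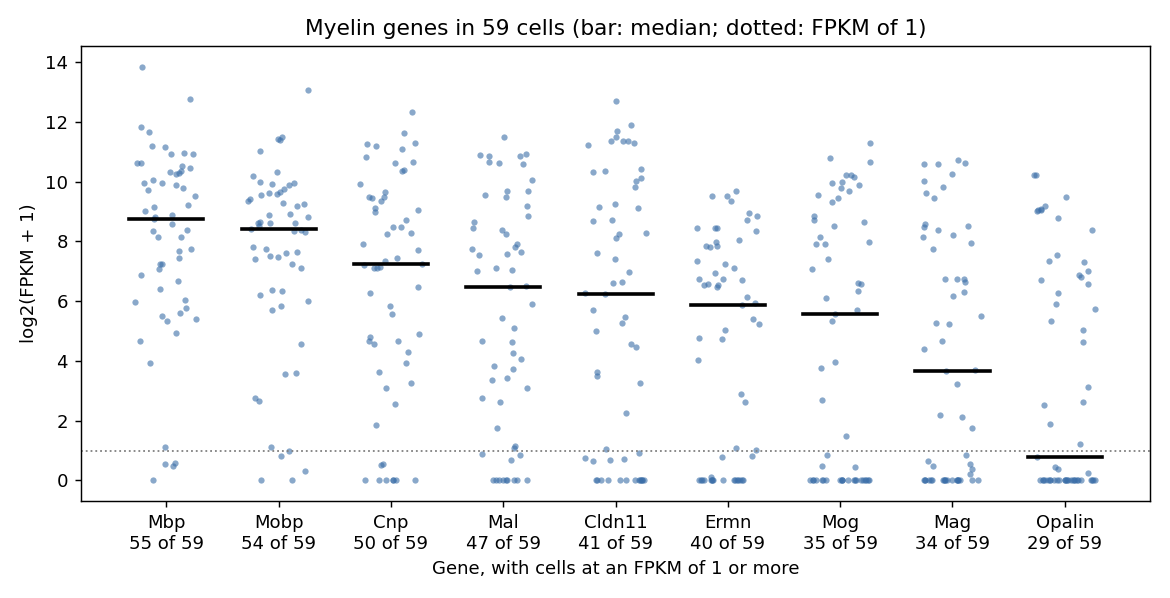
Level of each myelin gene as log2(FPKM + 1) in each of 59 cells (points), ordered by the number of cells in which it was detected, with the median as a bar and an FPKM of 1 as a dotted line. Mbp and Mobp sit high with few cells at 0, while Mog, Mag and Opalin divide into cells at 0 and cells well above the dotted line.

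On GRCm38 with the GENCODE M21 annotation, Mbp lies on chromosome 18 from 82475146 to 82585637 and Mobp on chromosome 9 from 120149707 to 120181484. Cnp lies on chromosome 11 from 100574904 to 100591729, Cldn11 on chromosome 3 from 31149920 to 31164324, and Mog on chromosome 17 from 37010743 to 37023398. Mal (127633226 to 127656695) and Ermn (58045113 to 58052864) are both on chromosome 2, Mag is on chromosome 7 from 30899176 to 30914873, and Opalin is on chromosome 19 from 41061710 to 41077113. No pair of the 9 genes overlaps.

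Cells differed in how much of the set they held. All 9 genes were detected in 21 cells (35.6%, 23.6 to 49.1%), 8 genes in 8 cells and 7 in 9 cells. At the other end, 0 of the 9 were detected in 2 cells, 20 and 62, and both had Snap25, at 370 and 550 FPKM. Cell 20 was the shallowest of all, with 29043 fragments, which limits detection. In cell 62, with 1074 genes detected, some of the 9 were above 0 but under the threshold, up to 0.897 FPKM for Cldn11. The 9 genes together held a median of 0.455% of the summed gene FPKM of a cell, with a range of 0 to 5.68%, and at least 1% in 19 cells.

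Detection of the other genes fell almost wholly in cells with Mbp and Mobp, which were themselves found in 93.2% and 91.5% of the cells. Opalin was found in 29 cells, and all 29 also had Mbp and Mobp, 28 had Cnp and 28 had Mal. Mbp was detected without Mog in 20 cells, and Mog without Mbp in 0. Mbp was detected without Mag in 21 cells, and Mag without Mbp in 0. Mobp was detected without Cldn11 in 13 cells, and Cldn11 without Mobp in 0. Among the other 7 the overlap was looser. Opalin was detected without Mag in 7 cells and without Mog in 5, Mag without Mog in 5, and Mal without Cnp in 5. A gene of lower level falls under the threshold sooner in a shallow library, and the part of this in the overlaps was not tested.

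Levels of the 9 genes went together over the cells, but not all to the same degree. Over the 36 pairs the Spearman rho between log2 levels had a median of 0.63, from 0.35 for Mbp and Opalin to 0.92 for Cldn11 and Mal. These are descriptions over 59 cells that each contribute 1 library and 1 depth, so no p-value is given. Holding constant how many genes each cell had detected, the median was again 0.63. Each gene was also compared with the mean of the other 8. The rho was highest for Cldn11 (0.92) and Mal (0.88), followed by Mog (0.82), Ermn (0.81), Mag (0.79) and Cnp (0.78), and it was lower for Mobp (0.67), Mbp (0.66) and Opalin (0.63).

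**Figure D2:**
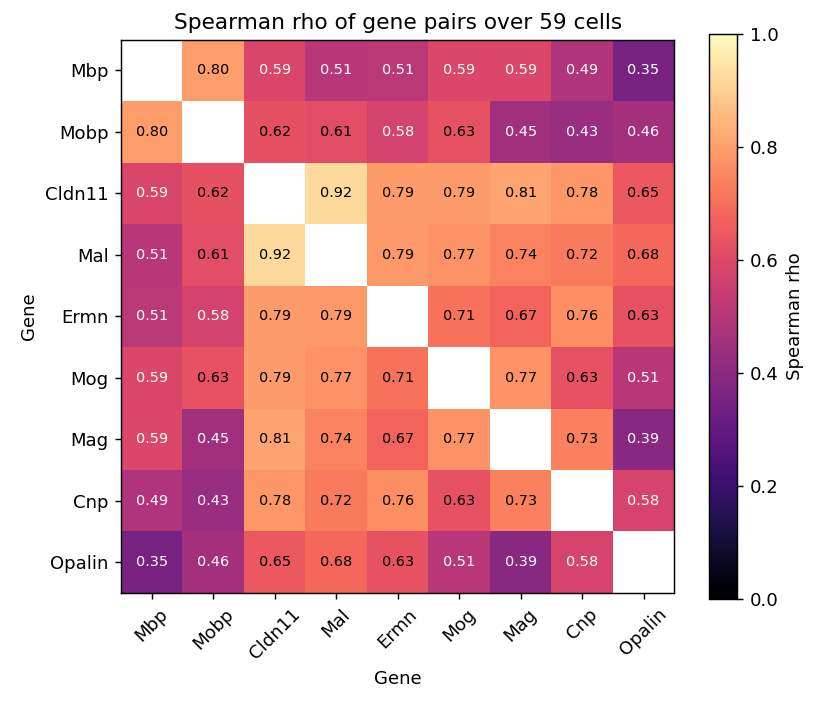
Spearman rho of each pair of the 9 myelin genes over 59 cells, with the value in each square. The block from Cldn11 to Cnp is at 0.63 or more, Mbp and Mobp pair with each other at 0.80, and the row of Opalin runs between 0.35 and 0.68.

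Mbp and Mobp formed a pair of their own, a split that was made after the values had been seen. Their rho with each other was 0.80, while the 14 pairs of either with the other 7 genes had a median of 0.55 (0.35 to 0.63). The 21 pairs among the other 7 had a median of 0.73 (0.39 to 0.92). The mean of Mbp and Mobp had a median of 8.37 on the log2 scale with quartiles of 6.64 and 9.78, against 4.95 with quartiles of 1.64 and 8.06 for the mean of the other 7. The rho between these means was 0.65. Transcripts of Mbp and Mobp are known to be carried out into the processes of oligodendrocytes, which is background and was not measured here.

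Single cells, chosen after their values were seen, illustrate the split and a departure from it. Cell 7 had 2285 FPKM of Mbp and 1016 FPKM of Mobp, while Cnp was at 8.58 FPKM, Cldn11 at 0.596 FPKM and Mog, Mag, Mal, Opalin and Ermn at 0. Cell 15 had 1315 FPKM of Mbp and 584 FPKM of Mobp, with Mal at 1.13 FPKM, Ermn at 0.722 FPKM and the other 5 at 0. Cell 50 had 6888 FPKM of Mbp and 2708 FPKM of Mobp, and all of the other 7, from 6.44 FPKM for Ermn to 88.1 FPKM for Cnp. Cells 15 and 50 were also high in 13 microglia genes, which are read further on. The mean log2(FPKM + 1) of those genes was 9.89 in cell 15, the highest of the 59, and 9.43 in cell 50. It was 1.69 in cell 7, and the median over cells was 3.29. In cell 1 Mbp and Mobp parted, with 24.5 FPKM of Mbp and 404 FPKM of Mobp, beside 1855 FPKM of Mal, 1559 FPKM of Cnp and 1195 FPKM of Opalin, and with Mog and Mag at 0. Both Mbp and Mobp were below detection, with some of the other 7 detected, in 1 cell, and Mbp or Mobp was detected with none of the other 7 in 2 cells.

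**Figure D3:**
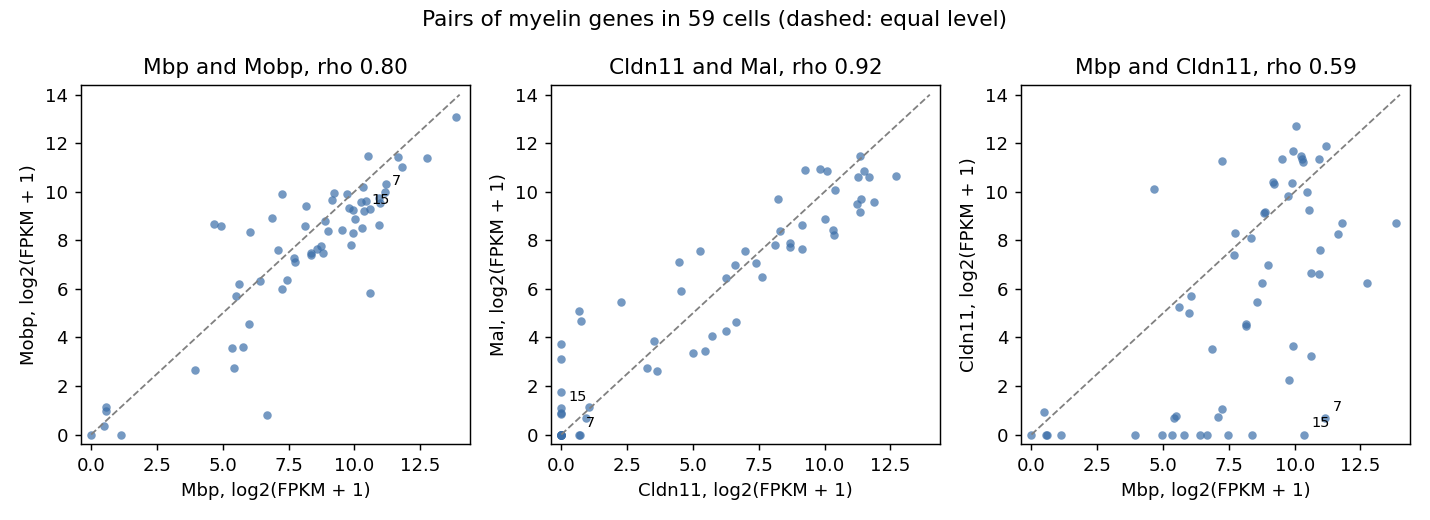
Levels of 3 pairs of myelin genes as log2(FPKM + 1), 1 point per cell, 59 cells, with a dashed line of equal level and cells 7 and 15 numbered. Mbp and Mobp lie along the line, as do Cldn11 and Mal. Mbp and Cldn11 spread more widely, and cells 7 and 15 have high Mbp with Cldn11 at or near 0.

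Ratios were taken within cells in which both genes were detected, and their size depends on the exon lengths used for FPKM. Mbp exceeded Mobp by a median of 0.85 on the log2 scale (interval 0.44 to 1.16), which is 1.80-fold, over 53 cells, and was the higher of the pair in 39 of them. The SD of this ratio was 1.53. Mog was below Cnp by a median log2 ratio of -0.99 (SD 1.32), and it was higher in 5 of 33 cells. Mog and Mal were close, with a median log2 ratio of -0.07 (SD 1.10) and Mog the higher in 16 of 33 cells. Mog exceeded Ermn by a median of 1.51 (SD 1.05) and in 30 of 32 cells, the tightest of the 36 ratios. Mag was below Cldn11 in 30 of the 32 cells with both, at a median log2 ratio of -1.41 (SD 1.26).

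Ratios of Mbp or Mobp to the other 7 had SDs of 2.02 to 3.29 (median 2.78, 14 pairs), against 1.05 to 2.45 (median 1.65, 21 pairs) for ratios among the other 7, and these ranges overlap. The log2 ratio of Mbp to Cldn11 had a median of 0.35 (SD 3.15) and ran between -5.49 and 7.88 over 41 cells. That of Mbp to Mal had a median of 1.52 (SD 3.29) over 46 cells. In 21 of the 36 ratios among the 9 genes the interval of the median lay off 0. Mbp was the highest of the 9 in 25 cells, Cldn11 in 12, Cnp in 9, Mobp in 6, and Mog and Mal in 3 each.

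Neuronal transcripts were then read in the same cells, with a list of 22 genes. The most widely found were Snap25 and the reticulon gene Rtn1, in 54 cells each, and the least widely found were Elavl4 in 35 and the heavy neurofilament gene Nefh in 27. The 9 myelin genes had a mean log2(FPKM + 1) with a median of 6.25 over the cells, from 0 to 10.46, and the 22 neuronal genes a mean with a median of 4.34, from 0.01 to 7.24. The myelin mean was above the neuronal mean in 34 cells (57.6%, 44.1 to 70.4%). The difference, myelin minus neuronal, had a median of 0.86 (interval -1.40 to 3.26) and ran between -5.40 and 9.11. The interval spans 0, so the direction of the median difference is not resolved by these cells.

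**Figure D4:**
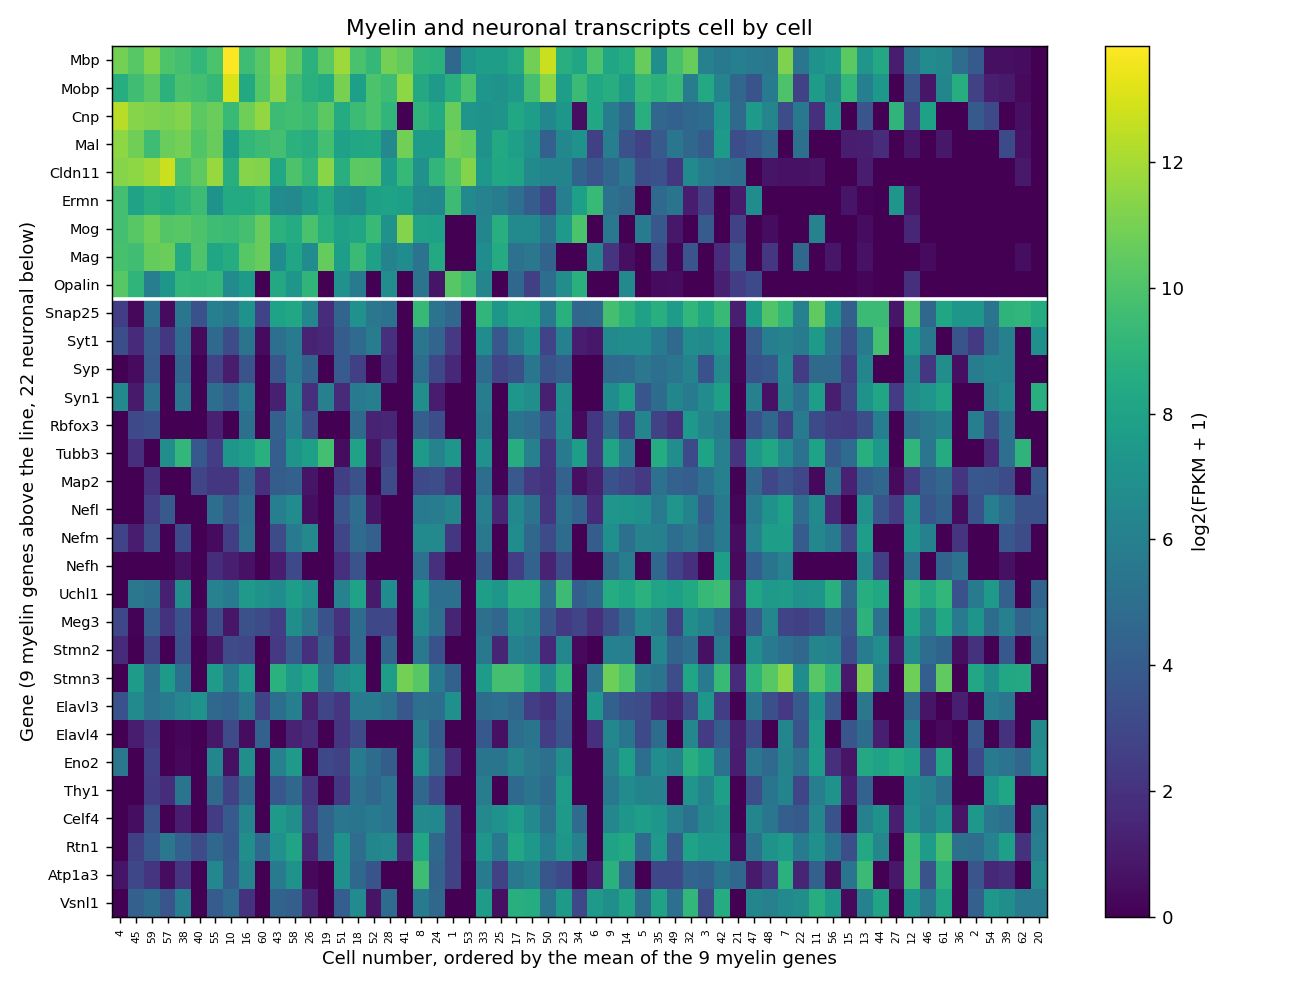
Log2(FPKM + 1) of the 9 myelin genes (above the white line) and 22 neuronal genes (below it) in 59 cells, ordered from left to right by falling myelin mean. The myelin rows lose Opalin, Mag, Mog and Ermn before Mbp and Mobp, and neuronal rows are darker in many cells at the left, where all 9 myelin genes are bright.

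Both lists were found together in many cells. In 37 cells, 50% or more of the myelin genes and of the neuronal genes were detected (62.7%, 49.1 to 74.96%). Each list reached 50% in most of the cells, so many cells with both follow from that alone. In these 37 cells Mbp, Mobp and Cnp were detected in all 37, Mal in 36, Mog in 27 and Opalin in 23. The myelin list reached 50% without the neuronal list in 8 cells (13.6%, 6.04 to 25.0%), a share of 22.0% at a detection threshold of 5 FPKM and 23.7% at 10 recovered fragments, and the neuronal list without the myelin list in 11 cells (18.6%, 9.69 to 30.9%). In the remaining 3 cells neither did. The cells with both had a median of 4784 genes detected, the cells with the myelin list alone 2426, those with the neuronal list alone 2081 and those with neither 1074. A list reaches 50% sooner where more genes are detected, and the part of this in the counts was not tested.

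Of the 11 cells with the neuronal list alone, cell 20 had all 9 myelin genes at 0 and the other 10 had between 1 and 4 of them detected. Mbp was detected in 8 of the 11, Mobp in 8, Cnp in 6, Mal in 3, Mog in 1 and Opalin in 0. Cell 61 had 83.7 FPKM of Mbp and 80.1 FPKM of Mobp beside 283 FPKM of Snap25, and the other 7 genes were at 0.859 FPKM or below. Cell 12, with all 22 neuronal genes and the lowest difference of -5.40, had 39.5 FPKM of Mbp and 10.9 FPKM of Mobp against 921 FPKM of Snap25. Cell 4 stood at the other end with a difference of 9.11, all 9 myelin genes, 5152 FPKM of Cnp and 1953 FPKM of Mbp, and 4.96 FPKM of Snap25. Cell 53, with 519 genes detected, had 7 of the 9 myelin genes and 0 of the 22 neuronal genes, with Cldn11 at 2491 FPKM.

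Gene by gene, Mbp met the synaptic vesicle fusion gene Snap25 in 50 cells. Over all 59 cells, whether or not Snap25 was detected, Mbp was above Snap25 in 37. By the same count over 59 cells, Mobp was above Snap25 in 34, Cnp in 28 and Mog in 23. Mobp was detected together with Snap25 in 50 cells, Cnp in 46 and Mog in 32. Rbfox3, encoding the nuclear antigen NeuN that marks most mature neurons, was detected in 41 cells. Of those 41 cells, Mbp was found in 39, Mobp in 39, Cnp in 37, Mog in 23 and Opalin in 19. Over all 59 cells these genes were detected in 55, 54, 50, 35 and 29. Snap25 itself was detected in 54 cells. The overlaps with Snap25 and with Rbfox3 were both close to the shares over all cells.

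The myelin and neuronal means were negatively related, weakly as they stood and more strongly with the number of genes detected held constant. The Spearman rho of the myelin and neuronal means over 59 cells was -0.30, and the partial rho given genes detected was -0.53. The points share their libraries, since each cell gives both means, and FPKM is scaled to each library, so the means are not independent measures. By gene, 21 of the 22 neuronal genes had a negative rho with the myelin mean, lowest for Snap25 (-0.47), the long non-coding RNA Meg3 (-0.41) and the calcium sensor gene Vsnl1 (-0.40). The exception was Elavl3, which encodes a neuronal RNA-binding protein, at 0.43. Among the 9 genes the relation to the neuronal mean was most negative for Ermn (-0.48) and nearest 0 for Mbp (-0.12).

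**Figure D5:**
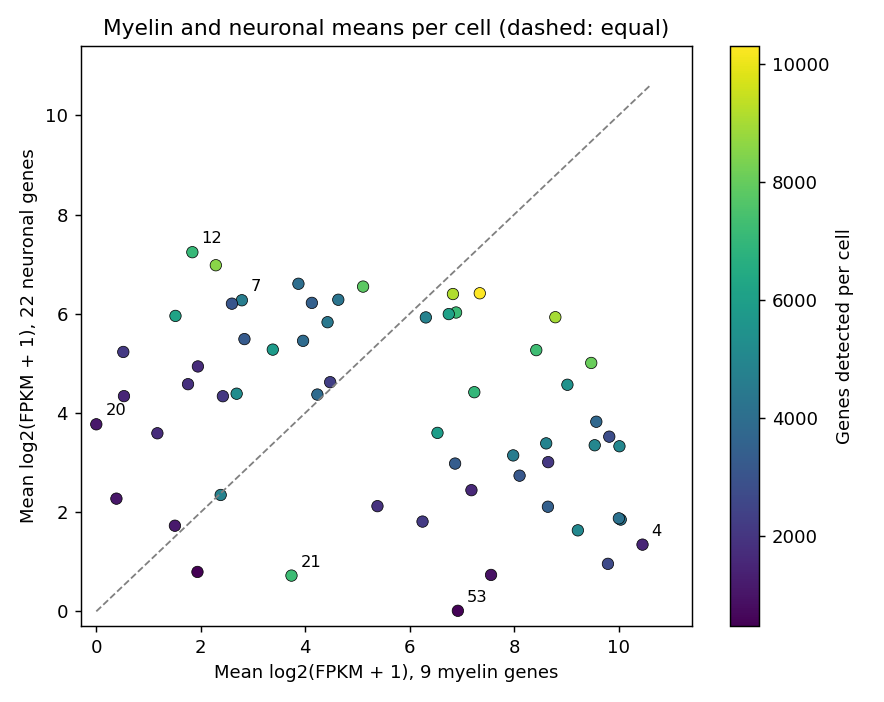
Mean log2(FPKM + 1) of 9 myelin genes (x axis) against that of 22 neuronal genes (y axis), 1 point per cell, coloured by the number of genes detected, with a dashed line of equal means and 6 cells numbered. 34 cells lie right of the line, and the cells at the far right, such as cell 4, have low neuronal means.

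Other oligodendrocyte genes were read beside the 9. Of 19 further genes of myelin and the mature oligodendrocyte, 13 reached 50% of the cells, as did 11.7% of all genes. Plekhb1, a membrane-associated adaptor, was found in 49 cells at a median of 215 FPKM, while Tmem125 was found in 16. Their mean followed the mean of the 9 myelin genes with a rho of 0.94. Among 10 transcription factors of the lineage, 1 reached 50% of cells, which is near the share over all genes. Olig1 was detected in 42 cells, Sox10 in 28, Myrf, which encodes the regulator of myelin genes, in 23, Nkx2-2 in 10 and Zfp488 in 3. Their mean had a rho of 0.77 with that of the 9 genes.

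Genes of the oligodendrocyte precursor were found in fewer cells than the 9 myelin genes. 0 of 10 reached 50% of the cells, which is near the share of 11.7% over all genes. Their median detection was 6.78% of cells. The summed level ran over 0, a median of 11.7 and 227 FPKM, against 0, 1987 and 26157 FPKM for the 9 myelin genes. Lhfpl3 was found in 17 cells and Enpp6, a marker of newly formed oligodendrocytes, in 15, while Gpr17 and the proteoglycan gene Vcan were found in 2 each. The rho of the precursor mean with the myelin mean was 0.42. By gene the median rho was 0.13, and 1 of the 10 genes, Enpp6 (0.57), reached 0.5. Over all genes detected in at least 12 cells, 3.62% did. Of the Schwann cell genes, Pmp22 was detected in 30 cells, Egr2 in 23 and Ncmap in 3, and the mean of these 3 had a rho of 0.71 with the myelin mean. Pmp22 and Egr2 are used by other cells as well, and the other Schwann genes listed were not analysed here.

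Markers of other cells in the tissue were read in the same way, beside the 11.7% of all genes that reached 50% of the cells. The 13 microglia genes, 8 of them in 50% of the cells or more, had a summed level of 0 to 38453 FPKM with a median of 898, and their mean had a rho of 0.21 with the myelin mean and 0.33 with the mean of Mbp and Mobp. C1qb was detected in 42 cells and Aif1 in 40, Cx3cr1 in 19 and Tmem119 in 14. The 14 astrocyte genes, 5 of them in at least 50%, summed to 0 to 4821 FPKM with a median of 255, and the rho was -0.02. Aldoc was found in 43 cells and Slc1a2 in 42, Fgfr3 in 13 and Aldh1l1 in 10. Of 10 endothelial and mural genes 0 reached 50%, from Itm2a in 11 cells and Rgs5 in 10 to Kdr in 2 and Pdgfrb in 1, and the summed level was 0 to 268 FPKM with a median of 0.143. As genes of other organs, Cela1 was found in 12 cells, Myh6 in 5, Apoa2 in 2 and Krt5 in 1. The mean of the 7 such genes in the table, at a median summed level of 0 FPKM, had a rho of 0.33 with the myelin mean, and that of the endothelial and mural genes 0.03. The rho of the myelin mean was 0.25 with the number of genes detected, 0.14 with depth, -0.33 with the share of spike-in FPKM and 0.30 with the share of mitochondrial FPKM. The mean of Mbp and Mobp alone had a rho of 0.47 with the mitochondrial share. Their part in the results was not tested.

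Over all genes detected in at least 12 cells, 291 of 8033 (3.62%) had a rho of at least 0.5 with the mean of the 9 myelin genes. Among the closest were Gatm (0.86), which encodes the first enzyme of creatine synthesis, the septin gene Sept4 (0.85), Ndrg1 (0.85) and the plasmolipin gene Pllp (0.84). They were followed by Tspan2 (0.83), the transferrin gene Trf (0.82), the carbonic anhydrase gene Car2 (0.82), the small heat shock gene Cryab (0.81), the apolipoprotein gene Apod (0.80) and Gpr37 (0.80). Cers2, the ceramide synthase of very long chains, Enpp2, Aplp1 and the link protein gene Hapln2 came next, all at 0.79. At the other end stood the metallothionein gene Mt3 (-0.53), Cdr1 (-0.49), Snap25 (-0.47), Ywhag (-0.43) and Meg3 (-0.41). The circular RNA Cdr1as is read from the strand opposite Cdr1, and whether counting used the strand is not given in the sources used here.

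The nearest gene outside the set is given for 7 of the 9 genes. For both Mbp (rho 0.67) and Mobp (0.73) it was Gatm. Mog was closest to Hapln2 (0.80), Mag to the serine synthesis gene Psat1 (0.83), Cnp to Pllp (0.82), Opalin to Car2 (0.68) and Ermn to Cryab (0.88). A rho of at least 0.5 was shared with 305 genes by Mag and with 51 by Mobp, the extremes of the 9.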

How the data were processed

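The authors deposited 1 table of FPKM values and each column is a cell. Per the submitters' processing notes, the build was GRCm38 and the tools were featureCounts 1.5.3 and STAR 2.5.3a. The sources used here do not state the annotation release, the strand setting or how multi-mapped reads were treated. 51 spike-ins were left out. Exon lengths and positions came from GENCODE M21 for 19366 of 20689 genes. Fragments were recovered as multiples of the smallest step of FPKM times exon length. A median of 73.4% of values up to 20 fragments came out whole within 0.02, and 0 of the low values of Mobp and Opalin did, so FPKM was used throughout without a count test. Means and correlations used log2(FPKM + 1), a scale that understates differences between low genes. With 1 group and no animals named, no test was run. Members and gene lists were chosen with earlier results of these data known. Named from each other list were the genes found in most and fewest cells, plus the 15 genes most like and the 5 least like the mean of the 9, and the nearest of each; some genes this takes are not reported here. Cells, ratios and genes beyond this rule were chosen after their values were seen, among them cells 1, 7, 15, 50, 53 and 61. The correlation, interval and depth steps were tested on simulated data. Alternatives were detection at any FPKM above 0, at 5 or at 10 fragments, pseudocounts of 0.1 and 10, rescaled cells, mitochondrial genes left out, deeper cells, list medians and fewer members. Python 3.11.15, numpy 2.4.6, pandas 2.3.3, scipy 1.17.1 and matplotlib 3.10.9 were used.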

Additional observations from a re-analysis of the deposited data

How the results depend on the processing

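Over 109 alternative values of the 13 summary results, 99 stayed within the interval or tolerance of the reported value, 10 moved and 0 reversed. Only a signed result whose interval or tolerance lay off 0 could be called reversed. Among the 13 these were the rho of the myelin mean with the neuronal and microglia means and the median pair rho. The share with 50% or more of both lists detected was 47.5% at a detection threshold of 10 fragments and 76.1% in the 46 cells with at least 2000 genes. Leaving out mitochondrial genes moved the median cell mean of the myelin genes to 7.35. The rho of the myelin and neuronal means became -0.49 in the 46 cells with at least 2000 genes, -0.41 with list medians and -0.53 with the number of genes held constant. The rho with the astrocyte mean became -0.18 in those 46 cells and -0.16 with genes held constant, and that with the microglia mean 0.10 with genes held constant. Without Mbp and Mobp the median of the pairs was 0.73, an alternative chosen after seeing the data, as were the constant number of genes and leaving out Elavl3. The sign of the rho with the astrocyte mean varied over the alternatives, between -0.18 and 0.04. Of the 15 genes most like the members, between 12 and 15 were shared with the first 15 under the 6 alternatives tried. Over 180 alternative ratios, 0 left their interval, while 3 of 63 detection shares and 8 of 36 median levels did. These were the medians of Mbp, Mobp, Cnp and Ermn, higher on rescaling each cell (959, 805, 367 and 108 FPKM) and with mitochondrial genes left out (1136, 860, 439 and 143 FPKM). The share with the myelin list alone was 22.0% at an FPKM of 5 and 23.7% at 10 fragments. The causes were not tested. No paired analysis was possible because there is 1 group. Cells as shallow as 29043 fragments limit detection of the fainter genes.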

Other observations

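Genes of myelin lipid synthesis divided by pathway, a grouping made after the values had been seen. Of 6 genes of sphingolipid synthesis and chain elongation, 4 had a rho of at least 0.5 with the mean of the 9 myelin genes, Cers2 (0.79), Ugt8a (0.74), which makes galactosylceramide, Fa2h (0.71), which hydroxylates its fatty acid, and Elovl1 (0.68). Elovl5 (0.38) and the sulfatide enzyme gene Gal3st1 (0.37) were lower. Of 9 cholesterol synthesis genes 0 did, with a median of 0.14 and a range of 0.06 to 0.32. Over all genes detected in at least 12 cells the share was 3.62%. The count of 0 of 9 is near that share and does not set the cholesterol genes apart from other genes. Detection overlapped, at 15 to 35 cells for the first group and 11 to 39 cells for the second. Hmgcs1, which feeds the cholesterol pathway, was found in the most cells of the 15 genes, 39, with a rho of 0.24.

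Of 10 genes for the axonal side of the myelin sheath, 3 had a rho of at least 0.5 with the myelin mean. The share was 3.62% over all genes detected in at least 12 cells. The 3 were the juxtaparanodal adhesion gene Cntn2 (0.67), Nfasc (0.55), whose isoforms serve both the axon and the glial loop, and the potassium channel gene Kcna1 (0.50). Cntn1 (-0.08), Cntnap1 (-0.08) and Nrcam (-0.21) did not reach 0.5. By detection, the anchoring gene Ank3 led the 10 with 41 cells and Kcna1 followed with 40, against 23 for Cadm3 and 16 for L1cam. Counting per gene does not separate the isoforms of Nfasc. For none of the 10 does it tell transcripts of the axon from those of glia. The rho with the neuronal mean was -0.24 for Cntn2, 0.06 for Nfasc and 0.28 for Kcna1.

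In cell 21, all 9 myelin genes were detected, Mbp at 62.3 FPKM, with 7 of the 22 neuronal genes and 7219 genes in all. The same cell had the highest value of C1qb of the 59 cells, 8628 FPKM.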
